A study of Mus musculus with 6 samples.

Results

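Calcineurin, the Rcan proteins that bind it and the NFAT transcription factors it acts on were followed through 10 genes, Rcan1, Rcan2, Rcan3, Ppp3ca, Ppp3cb, Ppp3cc, Ppp3r1, Nfatc1, Nfatc3 and Nfatc4, of the 19937 genes with a probe set of their own on the array. The genes were chosen by name. Each was represented by the probe set that carried its symbol alone, and each of the 10 had 1 such probe set, so no gene had a second reading on the array. The samples were primary neurospheres, floating colonies of neural precursor cells, grown from the hippocampus of male C57BL/6J adults, 8 to 12 weeks old. The titles of all samples call them big neurospheres, so the values may not stand for spheres of every size. Both groups were kept in a medium with EGF and bFGF. One group of 3 samples received 10 µM norepinephrine, a monoamine transmitter, and the other group of 3 received 15 mM KCl, which depolarises excitable cells. Spheres of both groups were collected on day 14, and each sample was run on 1 array. No group without either agent was analysed here, so a difference is norepinephrine minus KCl and has no untreated level beside it. The labels call the samples biological replicates without saying whether each came from its own mouse or culture, so a p-value reflects only how far these samples spread, which may be technical.

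Calcineurin is a phosphatase that calcium and calmodulin switch on. It consists of a catalytic subunit, made in 3 forms from Ppp3ca, Ppp3cb and Ppp3cc, and a calcium-binding regulatory subunit, which in most tissues comes from Ppp3r1. When active it removes phosphates from NFAT proteins in the cytoplasm, which then enter the nucleus and switch on genes, while kinases such as Dyrk1a and Gsk3b send NFAT back out. The Rcan proteins bind calcineurin and can inhibit it, and Rcan1 is itself a well-known target of the pathway, so that its RNA is often read as a trace of calcineurin activity. In neural tissue the pathway couples calcium entry to gene expression, and calcineurin is abundant in neurons.

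Rcan1 has 2 annotated starts, and they are shown here because the inner start is the one known for its response to calcineurin and NFAT, whereas the array reads both together. Sequences are from RefSeq, build GRCm38.p6, and cover the 250 bases before a start, 5′ to 3′ on the strand of the gene. Windows of 7 of the 10 genes were used here, 11 windows in all. On both strands 3 motifs were searched, and capitals mark their matches: the core GGAAA that NFAT and other factors bind, the cAMP response element TGACGTCA and the AP-1 element TGANTCA. The outer Rcan1 window lies before the gene at chr16:92466170-92466419 (minus strand), the inner one within the span of the gene at chr16:92400079-92400328 (minus strand), and the window of the first Rcan2 start before the gene at chr17:43801102-43801351 (plus strand).
Rcan1, outer start: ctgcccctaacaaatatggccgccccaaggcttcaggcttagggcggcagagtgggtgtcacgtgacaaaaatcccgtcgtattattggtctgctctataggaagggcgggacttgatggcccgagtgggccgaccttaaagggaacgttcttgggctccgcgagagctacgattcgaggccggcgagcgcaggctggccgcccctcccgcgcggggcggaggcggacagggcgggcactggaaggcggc
Rcan1, inner start: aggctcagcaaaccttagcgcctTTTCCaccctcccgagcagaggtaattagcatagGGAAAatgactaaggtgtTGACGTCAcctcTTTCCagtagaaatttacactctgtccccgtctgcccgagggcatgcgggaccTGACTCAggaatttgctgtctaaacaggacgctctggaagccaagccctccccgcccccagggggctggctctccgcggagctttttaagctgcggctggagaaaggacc
Rcan2, first start: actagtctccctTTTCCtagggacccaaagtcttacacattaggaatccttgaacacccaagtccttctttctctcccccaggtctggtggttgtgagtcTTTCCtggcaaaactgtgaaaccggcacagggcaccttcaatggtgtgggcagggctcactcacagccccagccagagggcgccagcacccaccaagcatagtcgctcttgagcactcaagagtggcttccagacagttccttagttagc

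The outer Rcan1 window held 0 matches to GGAAA, and the inner one held 3, which began 227, 193 and 163 bases before the start. The inner window also held 1 TGACGTCA, from 175 to 168 bases before the start, and 1 TGANTCA, from 110 to 104 bases before it, and none of these matches overlapped another. Of 32851 windows of this length, 55.6% held GGAAA at least once and 6.39% at least 3 times, 1.55% held TGACGTCA and 6.75% held TGANTCA, and 10 windows held all 3 motifs. The first Rcan2 window held 2 GGAAA matches, and of its other 2 windows, both inside the gene, 1 held 0 of any motif and 1 held a single TGANTCA. The Rcan3 window, which is not shown, held 1 GGAAA. Among the partners, the windows of Ppp3cb and Nfatc4 held 3 GGAAA matches each and that of Ppp3r1 held 0. The 2 windows of Nfatc3 held 1 and 0, and Ppp3ca, Ppp3cc and Nfatc1 are named only. A match is a match of letters and does not show binding, and the 1 probe set of Rcan1 does not separate the outer from the inner start.

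Values on KCl replicate 1 spread less, with an SD of 1.38 log2 units over the 21640 probe sets of single genes against 1.62 to 1.78 on the other 5 arrays. Against the mean of the other 2 KCl arrays, this array read 0.21 lower in the median of probe sets above the median brightness and 0.50 higher in that of the rest. Of the 9 measured neural precursor markers, the brightest were Fabp7 at 12.89 and vimentin (Vim) at 12.17 in the norepinephrine mean. The dimmest was Prom1, at 7.44 with norepinephrine and 6.84 with KCl. The mean of the 9 lay between 9.98 and 10.06 on the norepinephrine arrays and between 9.46 and 9.98 on the KCl arrays. The 7 microglia and leukocyte markers averaged 5.95 to 6.13 and 5.96 to 6.75, and the 6 endothelium and pericyte markers 5.99 to 6.24 and 5.90 to 6.53 (norepinephrine and KCl arrays), with KCl replicate 1 highest in both lists. The brightest of these, Cx3cr1 and Cd3e, Cldn5 and Cdh5, had norepinephrine means of 7.19, 7.12, 6.59 and 6.47 and KCl means of 7.44, 7.34, 6.61 and 6.59. All values are log2 expression values, on which a difference of 1 is a 2-fold change, and with 3 arrays a group their precision is limited.

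The comparison of the 2 treatments asked whether the parts of this pathway differed between spheres grown with norepinephrine and with KCl. The 3 Rcan genes read higher with norepinephrine, each without overlap between the groups. Rcan2 differed 1.94-fold, Rcan1 1.61-fold and Rcan3 1.34-fold. The 4 calcineurin subunits had positive differences on 6 arrays that were below 0 without KCl replicate 1, and the 3 NFAT factors differed by at most 0.14 log2 units. By limma with Benjamini-Hochberg adjustment over all 21640 probe sets, 0 of the 10 genes had an adjusted p under 0.05, as did 0 of all probe sets (0%), so none of these differences passed the test. Before adjustment, 2 of the 10, Rcan1 and Rcan2, had a p under 0.05, against 3.43% of all probe sets, and against 2.2% for those higher with norepinephrine. In bulk RNA of this kind, fewer cells of a type and less RNA per cell cannot be told apart.

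**Figure D1:**
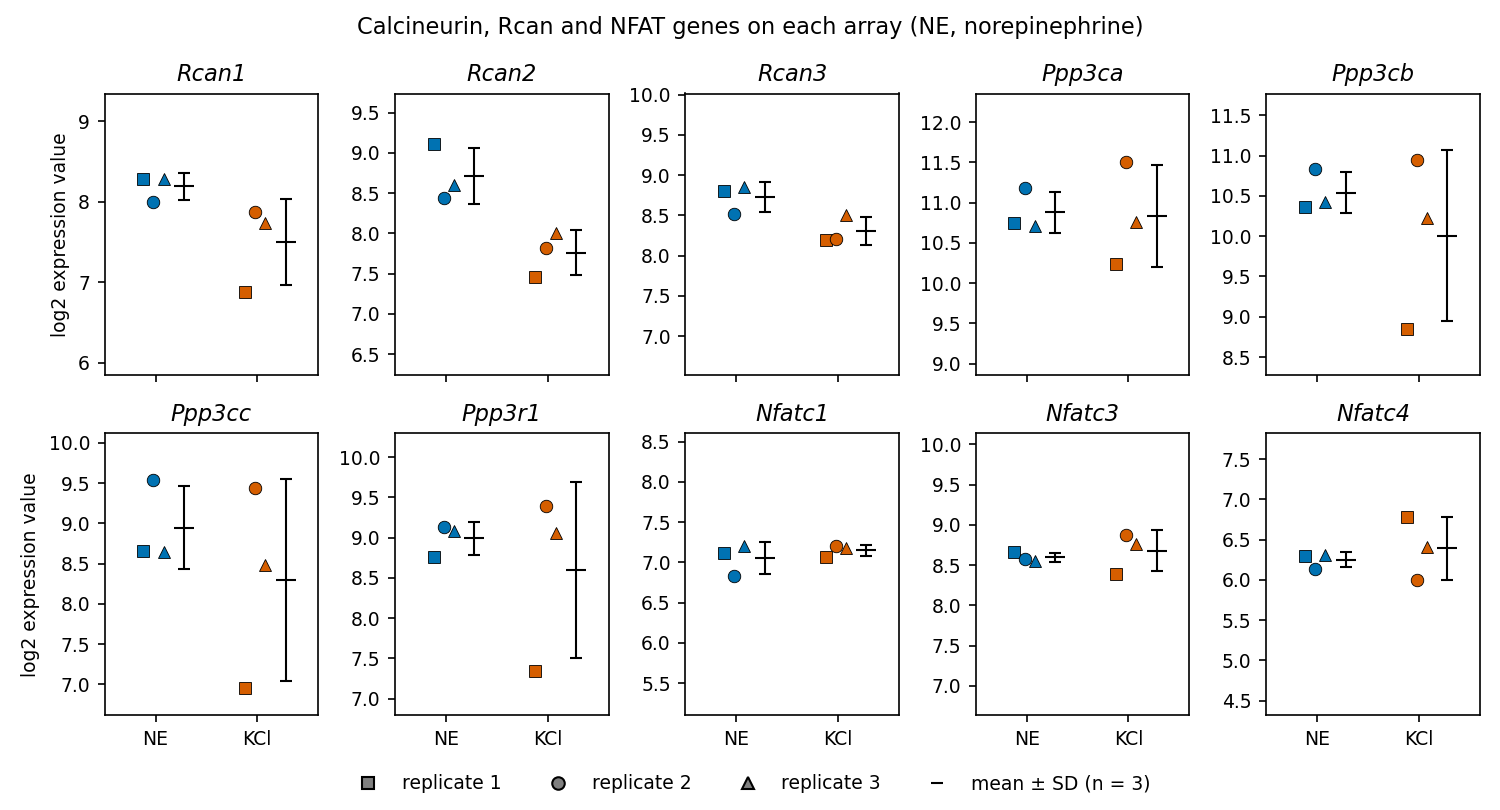
Log2 expression value (vertical axis, each panel spanning the same number of log2 units) of the 10 genes on each array, by treatment (NE, norepinephrine, blue; KCl, orange), with marker shapes for the replicate number and bars for the mean ± SD (n = 3). The norepinephrine points of Rcan1, Rcan2 and Rcan3 all lie above the KCl points, and the squares of KCl replicate 1 lie lowest for the calcineurin subunits.

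Rcan2, the family member known from brain, heart and muscle, had the largest difference of the 10 genes on all 6 arrays; Ppp3cc exceeded it without norepinephrine replicate 1 (0.80 against 0.76), and Ppp3cc and Ppp3cb without KCl replicate 2 (1.23 and 1.01 against 0.98). Its probe set, 10445325, read 9.11, 8.43 and 8.60 on norepinephrine replicates 1, 2 and 3, and 7.46, 7.82 and 8.00 on KCl replicates 1, 2 and 3. The lowest norepinephrine value lay 0.43 above the highest KCl value, so the groups did not overlap, and the highest array was norepinephrine replicate 1. The means were 8.71 ± 0.35 and 7.76 ± 0.28 (SD, n = 3 each), a difference of 0.95 ± 0.24 (SE, limma) with a 95% interval from 0.40 to 1.51. The unadjusted limma p was 0.00377 and the adjusted p 0.939. The difference was 0.80 without KCl replicate 1 and 0.76 without norepinephrine replicate 1, and over the 6 arrays left out in turn it stayed between 0.76 and 1.09.

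Rcan1, first described as a gene of the Down syndrome region, read 8.28, 8.00 and 8.29 with norepinephrine and 6.88, 7.87 and 7.74 with KCl on its probe set 10440993. KCl replicate 1 was the lowest array, and the other 2 KCl arrays lay at least 0.13 below the lowest norepinephrine array. The means were 8.19 ± 0.16 and 7.50 ± 0.54 (SD, n = 3 each), and the difference was 0.69 ± 0.28 (SE, limma), with a 95% interval from 0.060 to 1.32. The unadjusted limma p was 0.0352 and the adjusted p 0.939. Without KCl replicate 1 the groups still did not overlap and the difference was 0.38 ± 0.17, with a 95% interval from -0.0073 to 0.77. The interval of Rcan1 thus reached 0 on 5 arrays, while that of Rcan2 there ran from 0.31 to 1.30.

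Rcan3, the remaining family member, read 8.81, 8.51 and 8.85 with norepinephrine and 8.20, 8.21 and 8.50 with KCl on its probe set 10517373. The gap between the groups was 0.011, the width between norepinephrine replicate 2 and KCl replicate 3, and was smaller than the spread within either group. The difference was 0.42 ± 0.20 (SE, limma), with a 95% interval from -0.025 to 0.87 and an unadjusted limma p of 0.0614. After a further quantile normalization of the arrays the groups overlapped, at 8.39 to 8.84 with norepinephrine and 8.09 to 8.54 with KCl, and the difference was 0.29. Norepinephrine replicate 2 was the lowest norepinephrine array for all 3 Rcan genes, an order that 50.2% of all probe sets showed.

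Of the 10 genes, the groups did not overlap in 3, all of them higher with norepinephrine. The same held for 4.36% of all 21640 probe sets in that direction, and for 9.13% in either. Once quantile-normalized, the arrays separated by treatment in Rcan1, Rcan2 and, higher with KCl, Nfatc3, against 11.2% of all probe sets in either direction. Without KCl replicate 1 there were 4, the 3 Rcan genes and Nfatc3, against 16.2%.

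Astrocyte markers differed in the same direction as the Rcan genes. Of 6 listed astrocyte markers, 5 read higher with norepinephrine, against 38% of all probe sets. The mean of the 6 lay between 8.76 and 8.97 on the norepinephrine arrays and between 7.93 and 8.22 on the KCl arrays, with no overlap. The glutamate transporter Slc1a2 read 10.40 ± 0.18 against 9.80 ± 0.39 (SD, n = 3 each), and the gap junction protein Gja1 10.18 ± 0.069 against 9.45 ± 0.57. Gfap, the intermediate filament of astrocytes, named after its values were seen, read 8.11, 8.81 and 8.02 with norepinephrine and 6.97, 6.12 and 6.18 with KCl. Its groups did not overlap, and it differed by 1.89 ± 0.30 (SE, limma; adjusted p = 0.774), or 2.17 without KCl replicate 1. Without that array the differences of Gja1 and Slc1a2 were 0.40 and 0.41 in place of 0.73 and 0.61, and the median of the 6 markers 0.41 in place of 0.67. None of the 6 passed the test after adjustment. An unadjusted p under 0.05 was found for 4, against 3.43% of all probe sets, or for 3 without KCl replicate 1, against 4.63%. The 8 neuron markers averaged 6.97 to 7.19 with norepinephrine and 6.74 to 6.99 with KCl, which overlap through KCl replicate 1 at 6.99, while the other 2 KCl arrays lay between 6.74 and 6.87. Of the 8, 6 had a higher mean with norepinephrine, against 38% of all probe sets, and 7 without KCl replicate 1, against 52.2%. Before adjustment 2 had a p under 0.05, against 3.43% of all probe sets, and 0 passed after adjustment. The fusion protein Snap25 read 8.41 ± 0.42 against 7.38 ± 0.35 and the vesicle protein Syn1 7.51 against 7.45. The 7 oligodendrocyte markers averaged 7.47 to 7.50 and 7.30 to 7.83, with Olig2 at 9.98 against 10.17 and Sox10 at 8.06 against 7.86. The part of these cell types in the Rcan differences was not tested.

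The catalytic and regulatory subunits of calcineurin differed between treatments by less than their KCl arrays differed among themselves. Ppp3cb, the catalytic beta form, read 10.36, 10.84 and 10.43 with norepinephrine and 8.85, 10.94 and 10.22 with KCl. Ppp3cc, the catalytic gamma form, read 8.65, 9.54 and 8.64 and, with KCl, 6.95, 9.44 and 8.48. For both genes KCl replicate 1 was more than 1 log2 unit below every other array, and the other 2 KCl arrays lay on both sides of norepinephrine replicates 1 and 3. Ppp3r1, the regulatory subunit, read 8.75, 9.13 and 9.08 with norepinephrine and 7.35, 9.39 and 9.06 with KCl. Ppp3ca, the catalytic alpha form that predominates in brain, read 10.75, 11.18 and 10.71 with norepinephrine and 10.24, 11.50 and 10.76 with KCl. The groups overlapped for all 4 subunits.

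The differences of the subunits on 6 arrays were 0.65 ± 0.56 for Ppp3cc, 0.54 ± 0.46 for Ppp3cb, 0.39 ± 0.47 for Ppp3r1 and 0.045 ± 0.32 for Ppp3ca (SE, limma, n = 3 per group), and each was smaller than the SD of its KCl group. The 95% intervals ran from -0.62 to 1.92 for Ppp3cc, -0.51 to 1.58 for Ppp3cb, -0.67 to 1.46 for Ppp3r1 and -0.68 to 0.77 for Ppp3ca. Without KCl replicate 1 the 4 differences were -0.017, -0.041, -0.23 and -0.25 in the same order, with 95% intervals from -0.78 to 0.75 and from -0.82 to 0.31 for Ppp3cc and Ppp3ca. The difference of Ppp3ca was also below 0 without norepinephrine replicate 2, at -0.10, and after the further quantile normalization, at -0.16. Without KCl replicate 2 the differences of Ppp3cc, Ppp3cb, Ppp3r1 and Ppp3ca were 1.23, 1.01, 0.79 and 0.38, and Ppp3cc and Ppp3cb then had an unadjusted p under 0.05. The direction of the calcineurin subunits therefore differed with the KCl array left out.

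**Figure D2:**
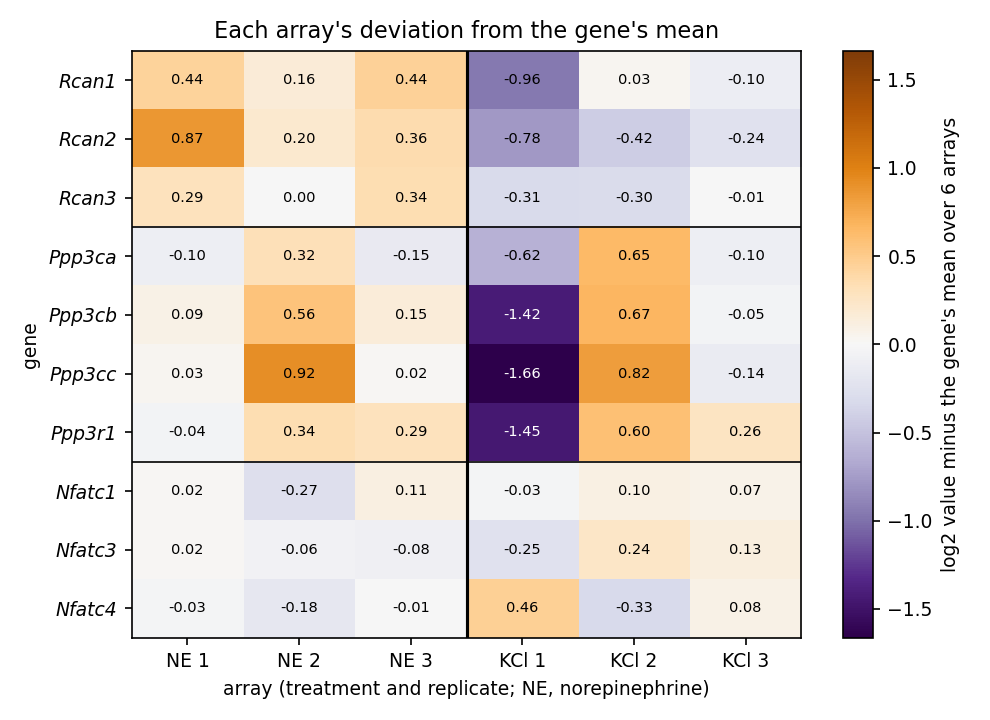
Deviation of each array from the mean of the gene over the 6 arrays (colour and printed value, log2 units), with the genes in rows, grouped as Rcan genes, calcineurin subunits and NFAT factors, and the arrays in columns. The calcineurin rows are lowest on KCl replicate 1, at -1.66 for Ppp3cc, and highest on replicate 2 of each treatment, whereas the Rcan rows are positive on the norepinephrine side, apart from Rcan3 on replicate 2 at -0.0017.

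All 4 calcineurin subunits shared their lowest array and, in each group, their highest. KCl replicate 1 was the lowest of the 6 arrays for all 4, as in 25.1% of all probe sets, and for the 3 Rcan genes, but for 1 of the 3 NFAT factors. Replicate 2 was the highest array in both groups for all 4 subunits, as in 19.4% of all probe sets, and for 0 of the 3 Rcan genes and 0 of the 3 NFAT factors. Values spread most on the replicate 2 arrays, with an SD of 1.76 with norepinephrine and 1.78 with KCl. These shares were not matched for brightness, and the part of the array spread in the shared order was not tested. Against the mean of the other 2 KCl arrays, KCl replicate 1 read 2.01 lower for Ppp3cc, 1.88 lower for Ppp3r1, 1.73 lower for Ppp3cb and 0.90 lower for Ppp3ca. Among all probe sets whose mean lay between 8 and 9, as for Ppp3cc and Ppp3r1, the median of this difference was -0.36 and the 5th percentile -1.68. Among those between 10 and 11, as for Ppp3cb and Ppp3ca, the median was -0.70 and the 5th percentile -2.16. Rcan1 read 0.92 lower and Rcan2 0.45 lower on that array. The medians of probe sets of their brightness, between 7 and 8 and between 8 and 9, were 0.18 and -0.36. The 5th percentiles were -1.03 and -1.68, so both genes lay above them.

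The NFAT factors carry the calcineurin signal to the nucleus, and all 3 had overlapping groups on 6 arrays. Nfatc3 read 8.66, 8.58 and 8.55 with norepinephrine and 8.39, 8.88 and 8.77 with KCl, a difference of -0.081 ± 0.20 (SE, limma). The 3 norepinephrine arrays lay within 0.11 of each other, and the KCl arrays lay on both sides of them. Without KCl replicate 1 the difference was -0.22 and the groups did not overlap. Nfatc1, best known from T cells and bone, read 6.84 to 7.21 with norepinephrine and 7.07 to 7.21 with KCl, a difference of -0.095 ± 0.19. Nfatc4, a form found in neurons and heart, read 6.14 to 6.31 with norepinephrine and 5.99 to 6.78 with KCl, a difference of -0.14 ± 0.23, and 0.049 without KCl replicate 1. Their unadjusted limma p lay between 0.548 and 0.692. The 95% intervals were -0.53 to 0.37 for Nfatc3, -0.52 to 0.33 for Nfatc1 and -0.67 to 0.38 for Nfatc4. The sign turned for Nfatc3 without KCl replicate 2, at 0.018, and for Nfatc1 without norepinephrine replicate 2, at 0.014. The mean of Nfatc4 lay below the 30th percentile over all probe sets and that of Nfatc1 below the median, and signal over background was not analysed here.

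**Figure D3:**
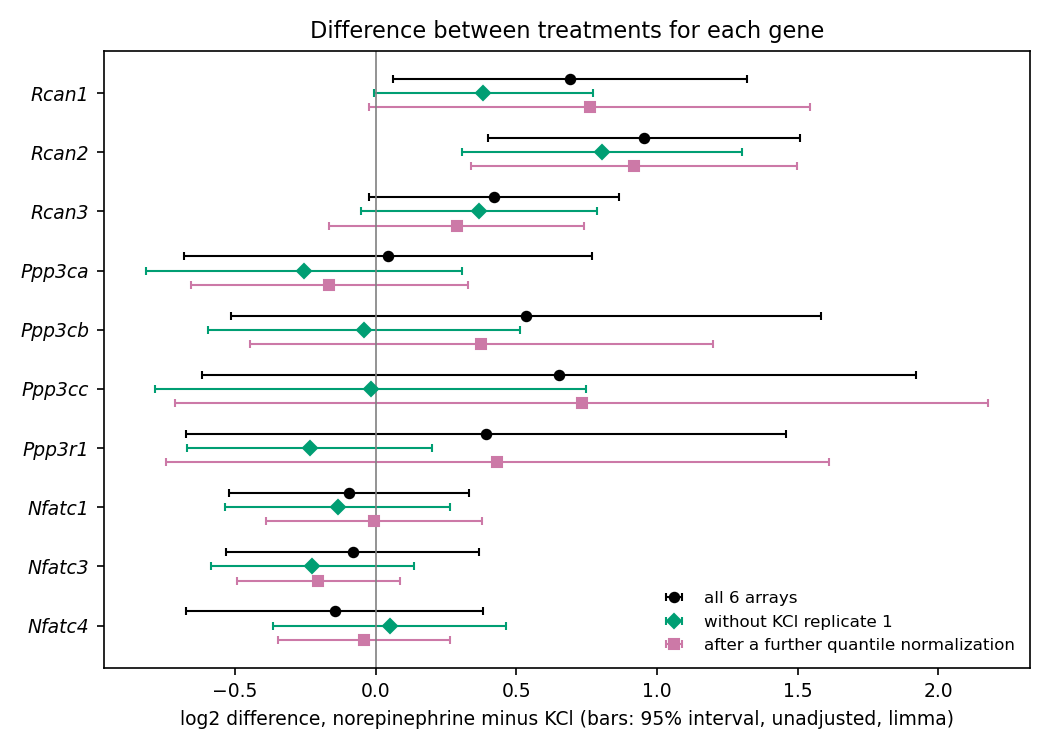
Difference between treatments (horizontal axis, log2, norepinephrine minus KCl) for each gene, with unadjusted 95% intervals from limma, on all 6 arrays (black), without KCl replicate 1 (green) and after a further quantile normalization (pink). The interval of Rcan2 lies above 0 in all 3 settings, from 0.40 to 1.51 on 6 arrays, and those of the calcineurin subunits and NFAT factors span 0.

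As a group, 7 of the 10 genes had a higher mean with norepinephrine, against 38% of all probe sets, and their median difference was 0.41 against -0.075 over all probe sets. The shares and medians over all probe sets were not matched for brightness, and KCl replicate 1 tended to read lower for bright probe sets and higher for dim ones. By role, the median was 0.69 for the 3 Rcan genes, 0.46 for the 4 calcineurin subunits and -0.095 for the 3 NFAT factors. Without KCl replicate 1, 4 of the 10 were higher with norepinephrine, the 3 Rcan genes and Nfatc4, against 52.2% of all probe sets, and the medians by role were 0.38, -0.14 and -0.13, with 0.0083 over all probe sets. The count of genes at an unadjusted p under 0.05 was 1, Rcan2, without KCl replicate 1 (4.63% of all probe sets), and again Rcan2 alone without norepinephrine replicate 1 (1.46%) or replicate 3 (1.65%). It was 2 without norepinephrine replicate 2 (2.07%) or KCl replicate 3 (3.05%) and 4 without KCl replicate 2 (16.3%). After the further quantile normalization it was 1, again Rcan2, against 4.6%. With the replicate number as a block it was 3, the Rcan genes, against 6.64%.

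Of the fits run, only those that weighted the arrays called any of the 10 genes. With limma's default array weights 3 of the 10 genes, Rcan1, Rcan2 and Rcan3, had an adjusted p under 0.05, against 26.2% of all probe sets. That weighting stopped before it converged and gave KCl replicate 3 a weight of 672.7 against 0.058 to 1.07 elsewhere. The gene-by-gene weighting gave that array 6.76 and the other 2 KCl arrays 0.16 and 0.29, and called Rcan1 and Rcan2, against 6.72% of all probe sets. In both weighted fits the KCl group rests mainly on 1 array, and the differences were 0.50 and 0.52 for Rcan1 and 0.74 and 0.77 for Rcan2.

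The other genes of the pathway were described from 5 lists with 54 entries, of which 51 were measured under a symbol of their own. The other 3 were not analysed here. Of the 51, 24 had a higher mean with norepinephrine, against 38% of all probe sets. Before adjustment 1 had a p under 0.05 (limma), against 3.43% of all probe sets, and 0 passed after adjustment. That 1 gene was Calm3, which encodes calmodulin, the calcium sensor that activates calcineurin. It read 10.92, 10.70 and 10.70 with norepinephrine and 9.14, 10.53 and 9.86 with KCl, without overlap, and differed by 0.93 ± 0.33 (SE, limma; adjusted p = 0.939), or 0.58 without KCl replicate 1. Calm2, which encodes the same protein, differed by 0.011, and whether it differs from Calm3 was not tested.

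Among the 12 measured activators, anchors and inhibitors of calcineurin, 7 had a higher mean with norepinephrine and the median difference was 0.0064. After Calm3 the smallest p-values belonged to the prolyl isomerases Ppia, the receptor of cyclosporin, at 0.58 ± 0.36, and Fkbp1a, the receptor of FK506, at 0.45 ± 0.35 (SE, limma). Both read lowest on KCl replicate 1, and without it their differences were 0.12 and 0.0015. Of the 9 kinases and export factors that return NFAT to the cytoplasm, 5 had a higher mean with norepinephrine, with a median of 0.075. The casein kinase Csnk1a1 stood at 0.33 ± 0.25 and the kinase Dyrk2 at -0.30 ± 0.20. The differences of Dyrk1a and Gsk3b were -0.11 and 0.075. Leaving out KCl replicate 1, the list's median was -0.071, and Csnk1a1, Dyrk2, Dyrk1a and Gsk3b stood at 0.066, -0.21, -0.32 and 0.00080.

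Store-operated calcium entry refills calcium stores and is a classical route to NFAT. Of 12 measured genes of this route and of inositol trisphosphate calcium release, 3 had a higher mean with norepinephrine, against 38% of all probe sets, and the other 9 with KCl, with a median difference of -0.14 against -0.075 over all probe sets. Stim2, a calcium sensor of the endoplasmic reticulum, read 8.88, 8.93 and 8.83 with norepinephrine and 8.96, 9.67 and 9.54 with KCl. Its groups did not overlap, and the difference was -0.51 ± 0.23 (SE, limma; adjusted p = 0.939), or -0.72 without KCl replicate 1. Stim2 was 1 of 3 genes of the list without overlap, all higher with KCl, against 9.13% of all probe sets in either direction. The list's median without KCl replicate 1 was -0.14, against 0.0083 over all probe sets. The channel gene Orai1 differed by -0.37 ± 0.22, or -0.19 without that array. Of the other NFAT genes, Nfat5 responds to osmotic stress and is not regulated by calcineurin. It read 7.75 to 8.26 with norepinephrine and 8.27 to 8.55 with KCl, without overlap. The difference was -0.42 ± 0.20, or -0.50 without KCl replicate 1. Nfatc2 differed by -0.17, or -0.033 without KCl replicate 1, and Nfatc2ip, an NFAT-interacting protein, by 0.21, or 0.14.

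The 15 further substrates of calcineurin had a median difference of 0.052, with 8 higher with norepinephrine, against 38% of all probe sets. Without KCl replicate 1 the median was -0.023, 7 were higher with norepinephrine (52.2% of all) and 2 had an unadjusted p under 0.05 (4.63% of all). Dnm1, the neuronal dynamin that calcineurin dephosphorylates in synaptic vesicle recycling, read 7.89 to 8.17 with norepinephrine and 7.48 to 7.84 with KCl, a difference of 0.36 ± 0.19 (SE, limma), or 0.45 without KCl replicate 1. Mef2c, a transcription factor of neurons and muscle, differed by -0.41 ± 0.28, or -0.70 without that array. None of the 15 had an unadjusted p under 0.05 on 6 arrays.

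**Figure D4:**
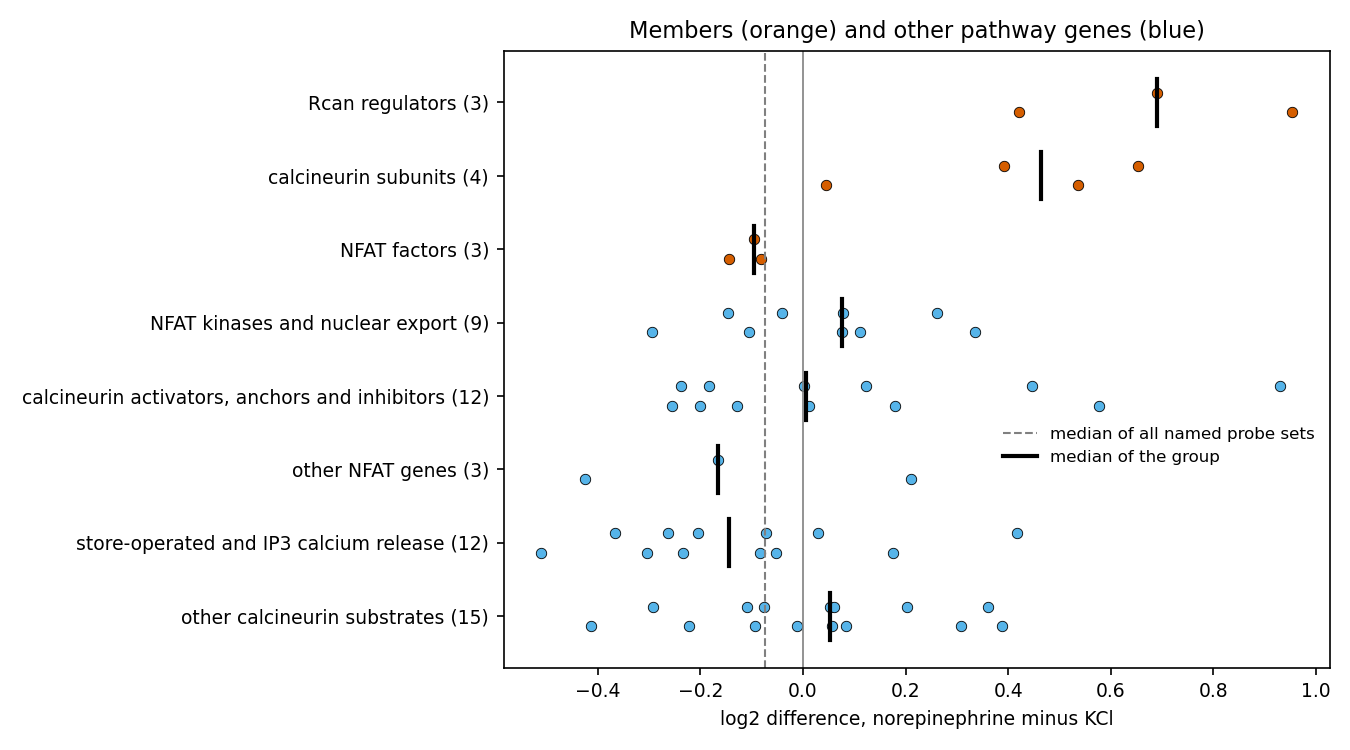
Log2 difference (horizontal axis, norepinephrine minus KCl, 6 arrays) of each measured gene (points), with the 10 genes by role in orange and the 5 lists of other pathway genes in blue, the median of each group as a bar and that of all named probe sets as a dashed line. The 3 Rcan genes, at 0.42 to 0.95, lie to the right, and Calm3 at 0.93 is the highest of the other genes.

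The genes whose pattern over the 6 arrays was most like that of Rcan1 were sought among 9967 genes of above-median brightness, by the root mean square distance between profiles after each was centred on its own mean. The nearest were Map3k7cl at 0.061, the tetraspanin Cd63 at 0.064 and Erg28, a sterol synthesis scaffold, at 0.076 log2 units. Their differences between treatments were 0.66 ± 0.27, 0.67 ± 0.29 and 0.67 ± 0.27 (SE, limma). Like Rcan1, all 3 read lowest on KCl replicate 1, Cd63 at 9.64 against 10.62 to 11.08 elsewhere. These 3 genes were chosen by closeness to the Rcan1 profile, so their similar differences and shared lowest array follow from that choice. Rcan2 lay at 0.27 and Rcan3 at 0.31 from Rcan1, in places 880 and 1395 of this order, and the calcineurin subunit nearest to it was Ppp3r1 at 0.40.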

How the data were processed

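RNA of 6 neurosphere samples, 3 per treatment, was measured on 1 array each; groups and replicate numbers come from the sample titles. The deposited numbers are on a log2 scale, 1 for each probe set and array. Partek and RMA were used to make them, per the submitters' processing notes, with version, settings and genome build not given in the sources used here. Of 34760 probe sets, 21640 carried 1 gene symbol, 1321 several and 11799 none in the platform table, and all 10 genes matched the RefSeq table of GRCm38.p6. The gene symbols of the array were used as given.

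Norepinephrine was compared with KCl by limma 3.58.1 in R 4.3.3 (lmFit, eBayes, two-sided, no covariate) on the 21640 probe sets, with Benjamini-Hochberg adjustment over all of them and a threshold of 0.05. The fit was tested on simulated data. A gene with several probe sets was read from the brightest. The genes and lists were chosen with earlier results of these data known. Named from a pathway list were genes at an unadjusted p under 0.05 and the 2 of next smallest p, and from marker lists the 2 brightest. The 3 genes nearest to Rcan1 were also named. Calm2, Dyrk1a, Gsk3b, Nfatc2, Gfap, Prom1, Pdgfra and Ppp3r2 were added after their values were seen. Motifs were searched in the 250 bases before RefSeq starts.

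Alternatives were each array left out, quantile normalization, centring, a brightness filter (30th percentile or median), limma's trend and robust options, a replicate block, array weights, and averaging a gene's probe sets. Gene-by-gene array weights were added after the data were seen.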

Additional observations from a re-analysis of the deposited data

How the results depend on the processing

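Of the 10 differences, those of Rcan1, Rcan2 and Rcan3 kept their sign under every alternative run and had an adjusted p under 0.05 only with array weights. With default and gene-by-gene array weights the probe sets called were 5670 and 1454, the genes of the pathway called 3 and 2, and the probe sets at an unadjusted p under 0.05 numbered 8676 and 5164, where the unweighted fit had 0, 0 and 743. Default weights put 4 of the 10 genes under that unadjusted p, and a further quantile normalization 1. A filter at the median brightness left 465 such probe sets. Leaving out each array gave 0 to 4 probe sets called, 317 to 3532 at an unadjusted p under 0.05, 1 to 4 of the 10 genes at that p and 4 to 8 higher with norepinephrine.

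The sign turned for Ppp3ca after quantile normalization (-0.16) and for Ppp3r1 with default and gene-by-gene weights (-0.079 and -0.058). Over the arrays left out in turn the differences ran from -0.25 to 0.38 for Ppp3ca, -0.041 to 1.01 for Ppp3cb, -0.017 to 1.23 for Ppp3cc, -0.23 to 0.79 for Ppp3r1, -0.17 to 0.014 for Nfatc1, -0.22 to 0.018 for Nfatc3 and -0.34 to 0.049 for Nfatc4. Under the filters, Nfatc4 (30th percentile) and Nfatc1 and Nfatc4 (median) gave no value. The cause was not tested. Centring each array on its median left 2 genes at an unadjusted p under 0.05, Rcan2 and Rcan3, in place of Rcan1 and Rcan2.

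With the replicate number as a block, 1436 probe sets had an unadjusted p under 0.05, 0 were called, and 3 of the 10 genes, the Rcan genes, were under that p. The labels do not say what equal numbers share, and the samples were not treated as pairs: deviations of same-numbered arrays correlated at 0.30, 0.63 and 0.085 over probe sets, and norepinephrine replicate 3 correlated best with KCl replicate 1. Signal over background, which limits dim probe sets such as that of Nfatc4, was not analysed here.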
